A study of Mus musculus with 45 samples.

Results

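The collagen genes of the developing mouse face were described by taking every row of the authors' deposited model table whose gene symbol is Col, a number, the letter a and a number. The rule found 35 probe sets of 34 genes among the 9626 probe sets of that table and the 28944 with a value. Col5a1 has a pair of probe sets, 10470462 and 10481259. Of 45 mouse collagen chains on a list by class, 11 had no row in the table and are not described (Col5a3, Col11a2, Col4a3, Col4a4, Col6a4, Col6a5, Col6a6, Col21a1, Col22a1, Col26a1 and Col28a1). The 35 probe sets fell into 10 of fibrillar chains, 4 of basement membrane chains, 3 of short chain network chains, 3 of beaded filament chains, 1 of the anchoring fibril chain, 8 of chains that associate with fibrils (FACIT), 4 of transmembrane chains and 2 of multiplexins.

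Collagens are extracellular proteins built as triple helices from chains that pair only in set combinations. Fibrillar collagens give connective tissue its tensile strength, and the network-forming type IV collagens are the scaffold of the basement membrane that separates an epithelium from the mesenchyme beneath it. In the embryonic face the mesenchyme, largely of neural crest origin, lays down most of the interstitial matrix and later forms cartilage and bone, while the ectoderm that covers it contributes chains to the basement membrane and to the junctions that anchor it.

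The embryos were of the inbred wild-type mouse strain C57BL6/J, with no transgene or treatment, at embryonic day E10.5, E11.5 or E12.5. The frontonasal, maxillary and mandibular prominences, the swellings that fuse to form the face, were each separated into ectoderm and mesenchyme with Dispase II, and each sample pooled several embryos. RNA from each sample was hybridised to 1 array (Affymetrix Mouse Gene 1.0 ST), giving 45 arrays, with 3 labelled as biological replicates in each of 15 groups. At E10.5 only frontonasal mesenchyme, mandibular mesenchyme and mandibular ectoderm were analysed, so both layers were present in 7 combinations of age and prominence. All values below are log2 signals after robust multi-array averaging (RMA), a level or a difference as stated, and no probe set's level is set against that of another, since probes differ in brightness. In pooled tissue, fewer cells of a type and less RNA per cell cannot be told apart.

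The array medians lay between 5.97 and 6.22 and the probe sets detected above background (detection p under 0.05) numbered 22008 to 26532 per array. The layers matched their labels, as all 10 epithelial markers were called higher in ectoderm and all 6 mesenchymal and 8 endothelial markers were called lower. The 6 mesenchymal markers (Prrx1, Pdgfra, Twist1, Ebf1, Ddr2, Tbx15) averaged 8.69 to 10.86 over the mesenchyme arrays. In ectoderm this average was 5.20 to 5.89 in the mandibular prominence at E10.5 and 6.18 to 8.36 in the other groups. In mesenchyme the mean of the epithelial markers was 7.64 to 8.62 on the frontonasal arrays and 5.54 to 7.11 on the others. The 3 arrays that stood farthest from their group means were replicate 3 of frontonasal ectoderm E12.5, replicate 2 of frontonasal ectoderm E11.5 and replicate 1 of maxillary mesenchyme E12.5. Of the 35 collagen probe sets, 33 were detected on all 45 arrays. Col10a1 was detected on 21 of the 45 and Col20a1 on 43.

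The promoters of 28 of the 34 genes were found in RefSeq (GRCm38.p6). The windows of the pair with the largest layer differences in each direction, Col3a1 (higher in mesenchyme) and Col17a1 (higher in ectoderm), and of the neighbours Col4a5 and Col4a6 are shown, because these last lie on opposite strands with listed starts 1343 bases apart and were both higher in ectoderm. Each sequence runs 5′ to 3′ on the gene's strand and ends at or just before the listed start. Capitals mark TATAA on the gene's strand and CCAAT on either strand (written ATTGG where it is on the other strand).
Col3a1, chr1:45311288-45311537, plus strand: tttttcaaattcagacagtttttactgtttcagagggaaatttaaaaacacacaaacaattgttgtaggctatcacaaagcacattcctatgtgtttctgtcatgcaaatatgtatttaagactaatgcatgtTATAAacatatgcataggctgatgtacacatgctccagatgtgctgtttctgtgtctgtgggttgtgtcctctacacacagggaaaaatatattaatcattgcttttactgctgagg
Col17a1, chr19:47692043-47692292, minus strand: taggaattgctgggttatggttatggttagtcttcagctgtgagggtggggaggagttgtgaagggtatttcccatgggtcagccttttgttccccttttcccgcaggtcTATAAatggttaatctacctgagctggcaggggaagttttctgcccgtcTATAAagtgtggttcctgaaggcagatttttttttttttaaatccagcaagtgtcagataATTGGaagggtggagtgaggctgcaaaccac
Col4a5, chrX:141475169-141475369, plus strand: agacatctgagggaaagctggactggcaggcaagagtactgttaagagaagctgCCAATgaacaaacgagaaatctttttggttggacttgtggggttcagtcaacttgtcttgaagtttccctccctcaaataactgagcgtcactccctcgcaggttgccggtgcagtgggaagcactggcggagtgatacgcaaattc
Col4a6, chrX:141474096-141474326, minus strand: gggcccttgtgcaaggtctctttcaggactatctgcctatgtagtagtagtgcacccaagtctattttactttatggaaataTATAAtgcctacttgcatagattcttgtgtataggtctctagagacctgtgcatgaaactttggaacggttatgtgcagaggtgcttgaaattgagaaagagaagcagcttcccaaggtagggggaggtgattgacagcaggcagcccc
TATAA lay 117 bases before the listed start of Col3a1, 140 and 91 before that of Col17a1, and 168 before that of Col4a6. The CCAAT of Col4a5 lay 196 bases before its start and the ATTGG of Col17a1 lay 31 before. Within 250 bases before the start, CCAAT on either strand was found in 10 of the 28 collagen promoters (35.7%) and in 34.5% of 27025 promoters, and TATAA in 6 of 28 (21.4%) and in 16.7%. These are matches of letters only.

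**Figure D1:**
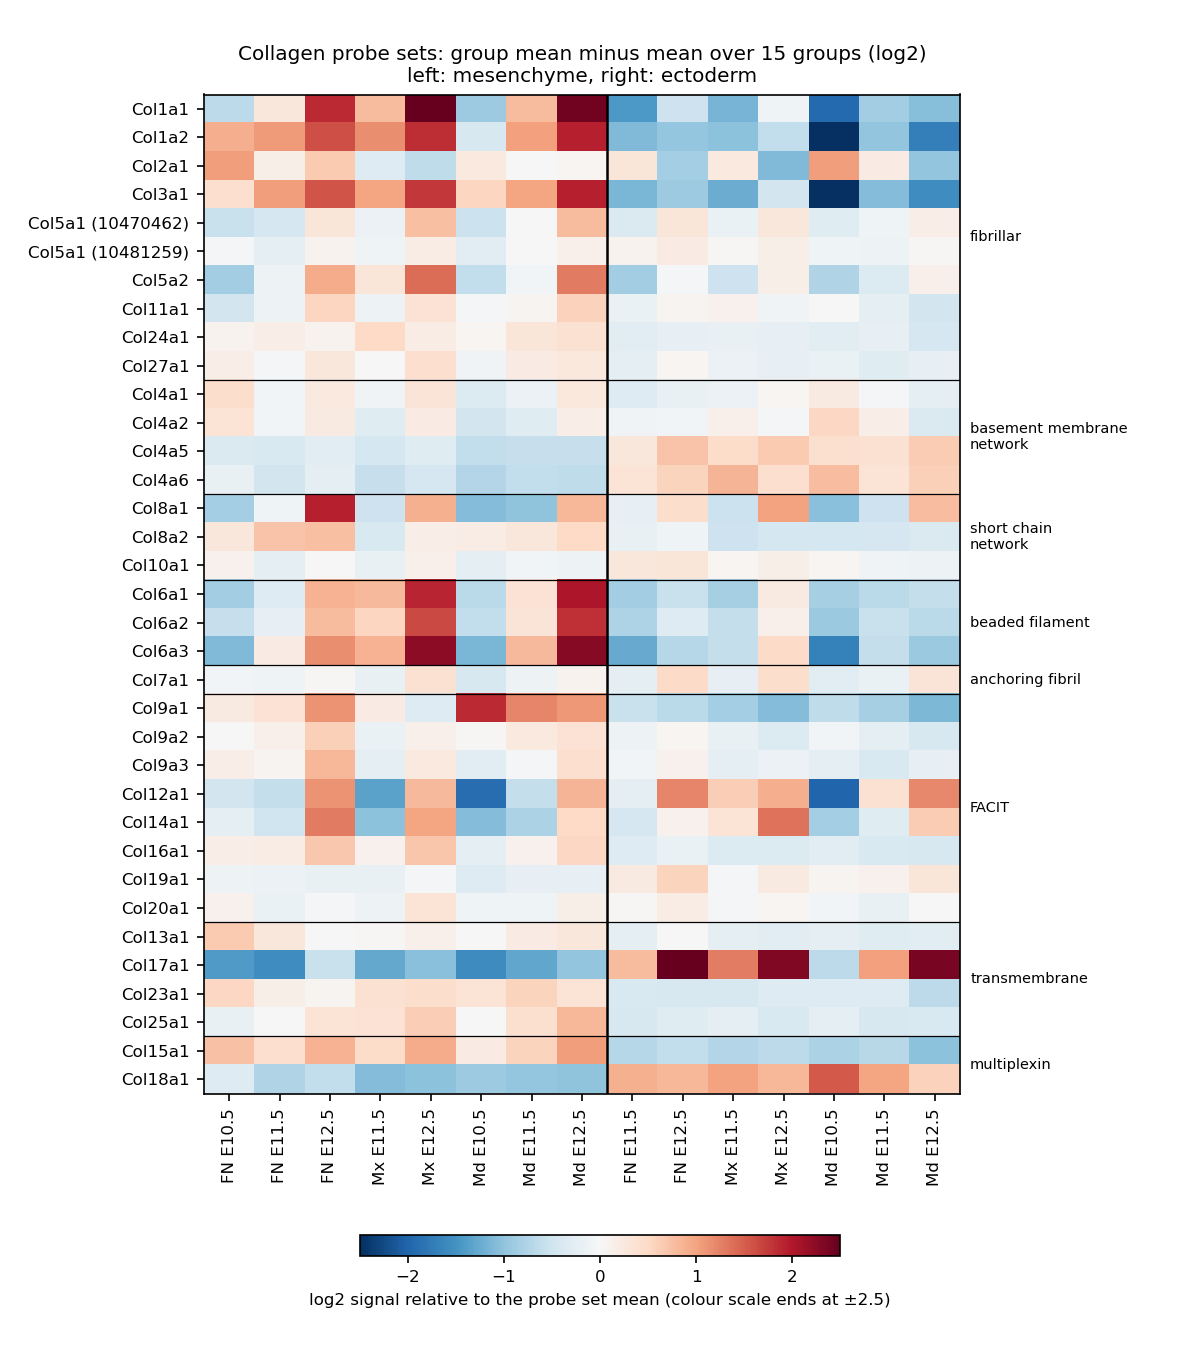
Mean log2 signal of each of the 35 collagen probe sets in the 15 groups, minus that probe set's mean over the groups, ordered by collagen class (rows) and by layer, prominence and age (columns; FN frontonasal, Mx maxillary, Md mandibular, mesenchyme left of the vertical line). Col1a1, Col6a1, Col6a2 and Col6a3 were highest in maxillary and mandibular mesenchyme at E12.5, and Col17a1, Col18a1, Col4a5 and Col4a6 were higher in every ectoderm group than in the mesenchyme of the same prominence and age.

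The first comparison asked which collagens differ between ectoderm and mesenchyme. The interstitial collagens Col3a1, Col1a2, Col1a1 and the 3 type VI chains were higher in mesenchyme, by 2.21 to 5.97 times on average, while Col17a1, Col18a1, Col4a6 and Col4a5 were higher in ectoderm, by 1.94 to 5.90 times. With limma's moderated test on the average over the 7 combinations (21 arrays a layer), 33 of the 35 probe sets passed an adjusted p of 0.05, 10 higher in ectoderm and 23 lower, beside 69.6% of all 14472 probe sets tested. Lower calls made up 33.7% of all tested and higher calls 35.9%. The median difference was -0.31 over the collagens and 0.03 over all tested. Membership of the authors' table already passed a filter on variance, so the collagens' share is better set against the 79.2% called among tested probe sets of that table. Of the 33, 11 differed by 2-fold or more.

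**Figure D2:**
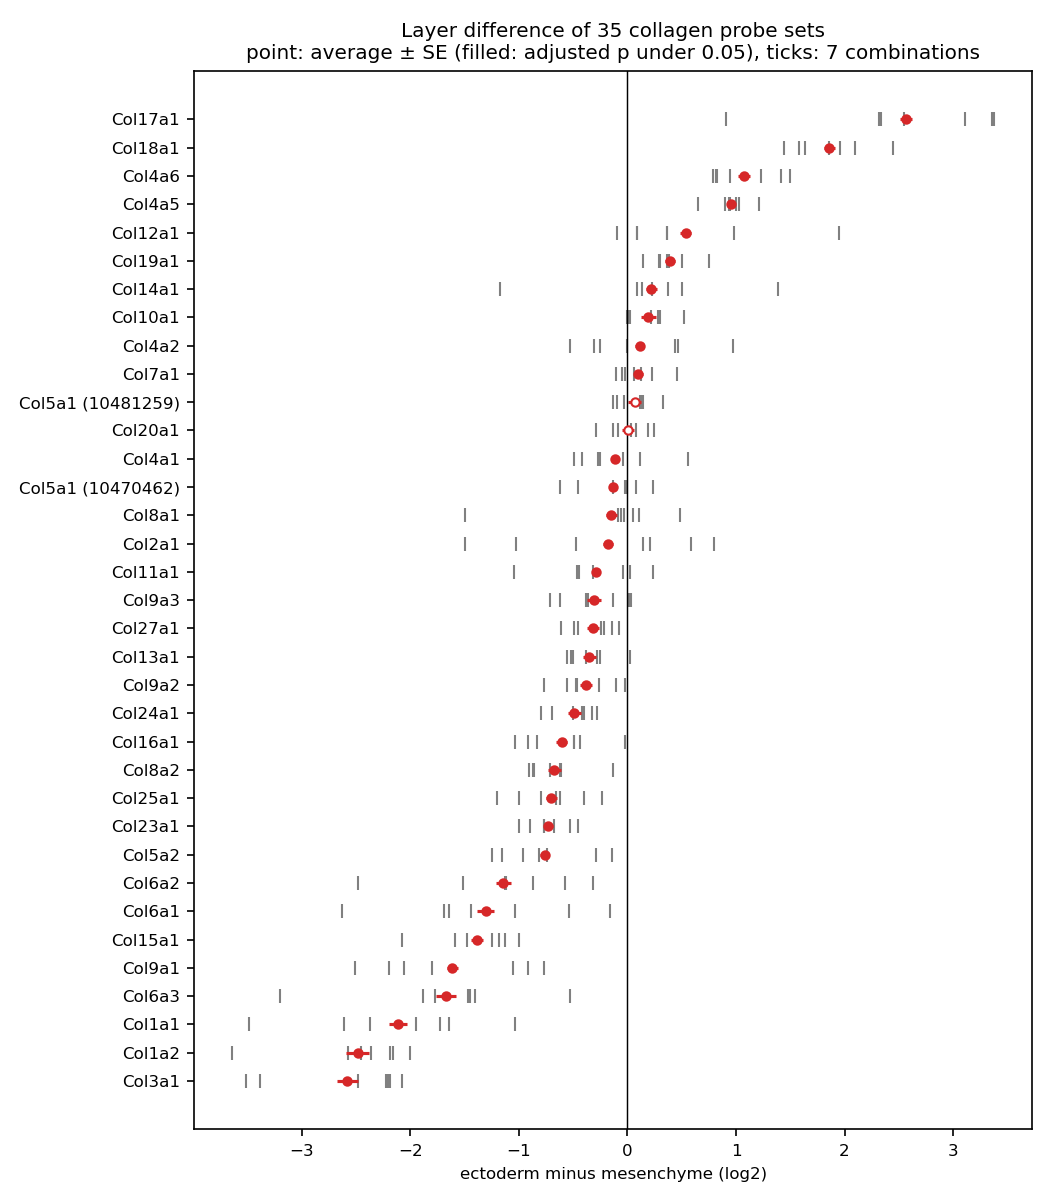
Difference between ectoderm and mesenchyme (log2, horizontal axis) of the 35 collagen probe sets. Points with bars are the average over 7 combinations ± SE, filled where the adjusted p was under 0.05, and grey ticks are the single combinations. The averages run from -2.58 for Col3a1 to 2.56 for Col17a1, and the ticks of Col2a1, Col8a1, Col12a1 and Col14a1 lie on both sides of 0.

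Among the fibrillar chains 9 of 10 probe sets were called and all 9 were lower in ectoderm. Col3a1, which forms thin fibrils with type I collagen, ran from 10.18 to 11.79 over the 24 mesenchyme arrays with a median of 10.87, and from 6.66 to 9.63 over the 21 ectoderm arrays with a median of 8.76. The layers did not overlap. Its difference was -2.58 ± 0.096 (SE; adjusted p = 8.28e-24 with limma). Col1a2, a chain of type I collagen, the main fibril of bone and skin, ran from 9.40 to 11.96 in mesenchyme (median 11.14) and from 7.04 to 9.76 in ectoderm (median 8.77). Its mesenchyme and ectoderm arrays overlapped, because mandibular mesenchyme at E10.5 was at 9.83, 9.46 and 9.40. Its difference within each age and prominence averaged -2.49 ± 0.10 (adjusted p = 3.61e-22). Col1a1, the other type I chain, differed by -2.12 ± 0.084, and the gap ran from -1.04 in the mandibular prominence at E10.5 to -3.48 there at E12.5. Col5a2, which limits fibril diameter, differed by -0.76. Col24a1, Col27a1, Col11a1 and Col2a1 differed by -0.49, -0.32, -0.29 and -0.18. The probe sets of Col5a1 disagreed, as 10470462 differed by -0.13 (adjusted p = 0.0012) and 10481259, at 0.07, was not called.

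Col2a1, the fibrillar collagen of cartilage, had no single direction. It was higher in ectoderm by 0.80 in the mandibular prominence at E10.5 and by 0.15 to 0.58 in the 3 prominences at E11.5, and lower by 1.5, 0.47 and 1.03 in frontonasal, maxillary and mandibular ectoderm at E12.5. With the frontonasal groups left out its average moved from -0.18 to 0.019 (adjusted p = 0.789).

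The basement membrane chains split by chain. Col4a6 ran from 5.04 to 5.94 in mesenchyme (median 5.46) and from 6.24 to 7.01 in ectoderm (median 6.54), with no overlap, and was higher in ectoderm by 1.07 ± 0.051 (adjusted p = 2.02e-20). Col4a5 ran from 6.07 to 6.57 in mesenchyme (median 6.34) and from 6.90 to 7.65 in ectoderm (median 7.24), again apart, with a difference of 0.95 ± 0.037 (adjusted p = 3.02e-23). These chains assemble together in the basement membrane of epithelia. The widely expressed pair Col4a1 and Col4a2 differed little on average, by -0.12 and 0.11. The Col4a1 difference changed sign only in the mandibular prominence, from 0.56 at E10.5 and 0.11 at E11.5 to -0.50 at E12.5. At E11.5 and E12.5 it was -0.25 and -0.42 in frontonasal tissue and -0.04 and -0.27 in maxillary. That of Col4a2 went from -0.007 to -0.31 in frontonasal and from 0.44 to -0.26 in maxillary tissue over the same ages. In the mandibular prominence Col4a2 was higher in ectoderm by 0.98 at E10.5 and by 0.47 at E11.5 and lower by 0.53 at E12.5.

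In the short chain network class Col8a2, known from the membrane beneath the corneal endothelium, ran from 5.97 to 7.38 in mesenchyme (median 6.86) and from 5.82 to 6.53 in ectoderm (median 6.25). Its ranges overlapped and its difference was -0.67 ± 0.059 (adjusted p = 9.09e-13). Col8a1 differed by -0.15, a value that rested on frontonasal tissue, where the gap at E12.5 was -1.5, and that became 0.11 (adjusted p = 0.128) without the frontonasal groups. Col10a1, the collagen of hypertrophic cartilage, lay near background, detected on 9 of 24 mesenchyme and 12 of 21 ectoderm arrays, and differed by 0.19 ± 0.070 (adjusted p = 0.0152) with medians of 4.68 in mesenchyme and 4.79 in ectoderm.

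All 3 beaded filament chains, which assemble into the type VI microfibrils found around mesenchymal cells, were lower in ectoderm. Col6a3 ran from 6.36 to 10.01 in mesenchyme (median 8.48) and from 5.70 to 8.74 in ectoderm (median 6.77), with a difference of -1.67 ± 0.091 (adjusted p = 1.15e-18). Col6a1 ran from 6.12 to 9.58 in mesenchyme (median 8.03) and from 6.14 to 7.98 in ectoderm (median 6.73), with a difference of -1.31 ± 0.076. The layers overlapped for both. Mesenchyme at E10.5 was as low as ectoderm arrays, and later ages overlapped too. Maxillary ectoderm at E12.5 had means of 8.06 for Col6a3 and 7.68 for Col6a1, above 7.79 and 7.13 in frontonasal mesenchyme at E11.5. In the mandibular prominence the gap of Col6a3 was -0.53 at E10.5, -1.40 at E11.5 and -3.20 at E12.5. Col7a1, the anchoring fibril chain that ties the epidermal basement membrane to the dermis, ran from 6.40 to 7.53 in mesenchyme (median 6.86) and from 6.48 to 7.61 in ectoderm (median 6.81). Its average difference was 0.10 ± 0.042 (adjusted p = 0.0356), and 10 of the fits that each left out 1 array lost this call.

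The FACIT chains, which sit on the surface of fibrils, held 7 called probe sets of 8, with 3 higher and 4 lower in ectoderm. Col9a1, of the cartilage collagen type IX, ran from 6.86 to 9.36 in mesenchyme (median 8.07) and from 6.08 to 7.11 in ectoderm (median 6.54), with a difference of -1.62 ± 0.050 (adjusted p = 4.16e-26). Its partners Col9a2 and Col9a3 differed by -0.38 and -0.31. Col16a1 ran from 6.27 to 7.46 in mesenchyme (median 6.81) and from 6.04 to 6.68 in ectoderm (median 6.22) and differed by -0.61 ± 0.050. Col12a1 and Col14a1, chains of dense connective tissue, were on average higher in ectoderm, by 0.54 and 0.22. The Col12a1 gap was widest in the maxillary prominence at E11.5, at 1.95, and was 0.09 there at E12.5. The Col14a1 gap was 1.38 in maxillary tissue at E11.5 and -1.18 in frontonasal tissue at E12.5. Col19a1 was higher in ectoderm by 0.39, and Col20a1 was not called.

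Col17a1, the transmembrane collagen of the hemidesmosome that holds basal epithelial cells to the basement membrane, ran from 6.88 to 10.49 in ectoderm (median 9.0) and from 5.90 to 7.20 in mesenchyme (median 6.34). Only the mandibular ectoderm arrays of E10.5, at 6.88, 6.96 and 7.12, reached into the mesenchyme range. Its difference was 2.56 ± 0.057 (adjusted p = 1.66e-30). The other 3 transmembrane chains were lower in ectoderm. Col23a1 ran from 7.38 to 8.08 in mesenchyme (median 7.80) and from 6.60 to 7.35 in ectoderm (median 7.04), with no overlap and a difference of -0.73 ± 0.044. Col25a1 and Col13a1 differed by -0.70 and -0.35.

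The multiplexins, both known from basement membrane zones, went in opposite directions. Col18a1, the source of the fragment endostatin, ran from 9.51 to 10.52 in ectoderm (median 9.87) and from 7.65 to 8.66 in mesenchyme (median 8.05), higher by 1.86 ± 0.048 (adjusted p = 1.23e-28). Col15a1 ran from 5.73 to 6.56 in ectoderm (median 6.17) and from 6.83 to 7.95 in mesenchyme (median 7.51), with a difference of -1.39 ± 0.057 (adjusted p = 1.68e-22). Neither gene's layers overlapped. All 8 endothelial markers were also lower in ectoderm, with array means of 5.01 to 6.69 there and 7.60 to 8.40 in mesenchyme, and their part in the Col15a1 difference was not tested.

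**Figure D3:**
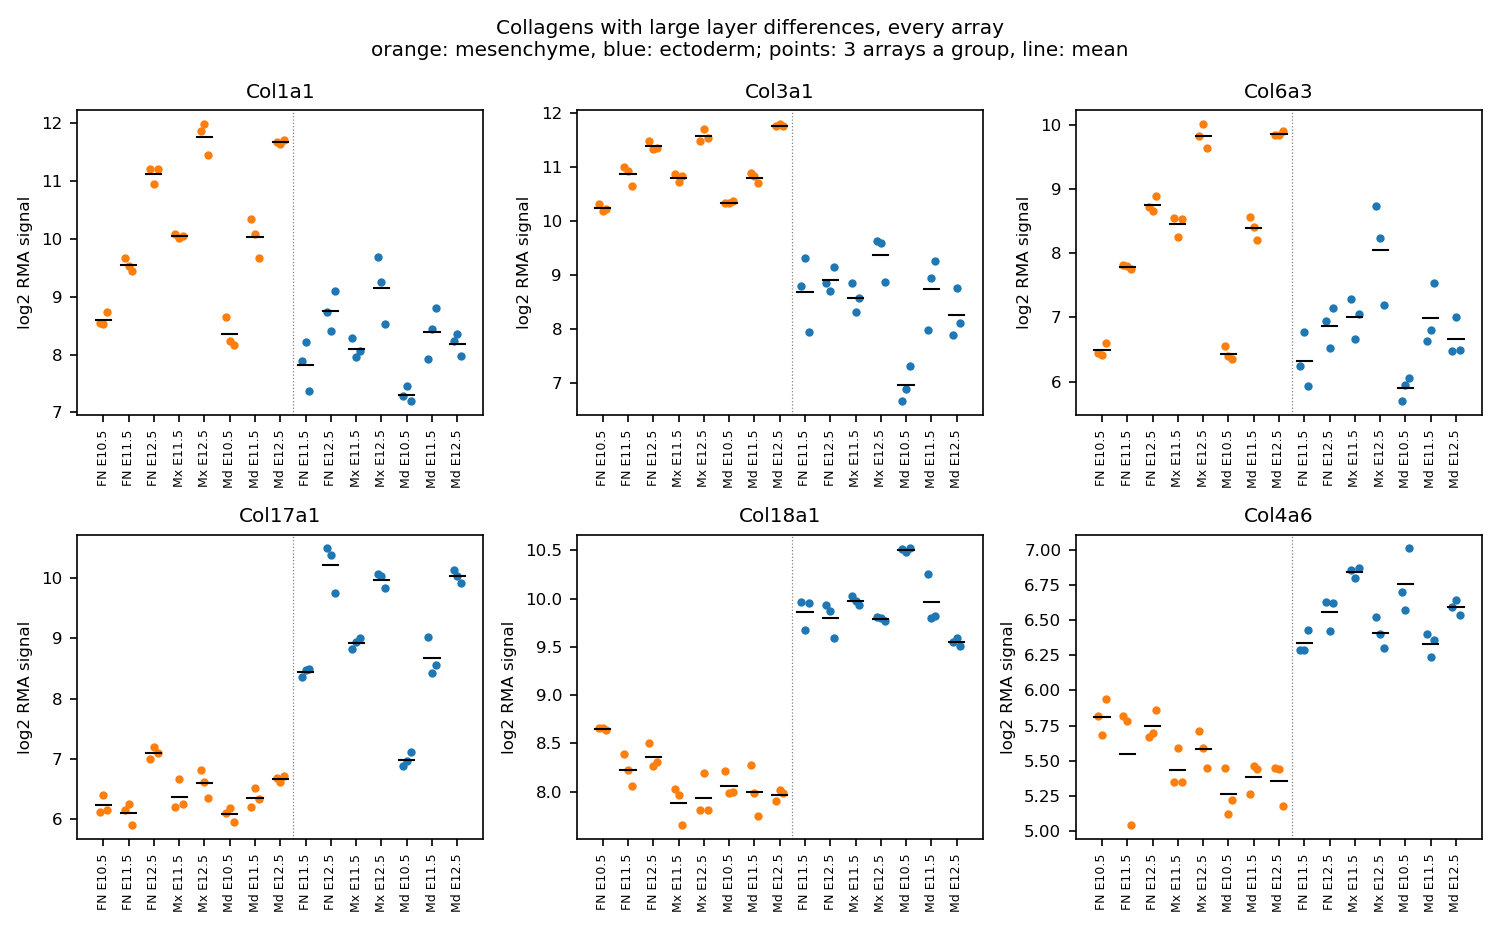
Log2 signal on every array (vertical axis) in the 15 groups (horizontal axis) for Col1a1, Col3a1, Col6a3, Col17a1, Col18a1 and Col4a6. Orange points are mesenchyme, blue points ectoderm, and black lines group means of 3 arrays. Col3a1, Col18a1 and Col4a6 show no overlap between the layers, and Col17a1 in ectoderm runs from 6.88 at E10.5 to 10.49 at E12.5.

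The second comparison followed the mesenchyme from E10.5 to E12.5. Some interstitial collagens, among them Col1a1 and the type VI chains, rose on average at both steps. From E10.5 to E11.5, over frontonasal and mandibular mesenchyme, 15 of 35 probe sets were called, 12 higher and 3 lower, beside 26.1% of all tested (14.8% higher and 11.3% lower). The median change was 0.07 over the collagens and -0.02 over all tested. From E11.5 to E12.5, over the 3 prominences, 25 were called, all of them higher, beside 36.7% of all tested (19.4% higher and 17.3% lower) and 26.2% called higher among tested probe sets of the authors' table. The median change was 0.38 over the collagens and 0.02 over all tested, and 8 collagens at least doubled their signal.

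At the first step Col6a3 read 6.45, 6.42 and 6.60 in frontonasal mesenchyme at E10.5 and 7.82, 7.80 and 7.75 at E11.5, and in the mandibular prominence 6.55, 6.40 and 6.36, then 8.56, 8.41 and 8.21. All E11.5 arrays lay above all E10.5 arrays. It rose by 1.63 ± 0.17 (adjusted p = 2.40e-09), the largest change among the collagens at this step. Col1a1 rose by 1.32 ± 0.16, from 8.54, 8.52 and 8.73 to 9.66, 9.53 and 9.45 in frontonasal mesenchyme and from 8.65, 8.24 and 8.16 to 10.35, 10.09 and 9.67 in mandibular. The other type VI chains rose by 0.79 (Col6a1) and 0.66 (Col6a2). Col1a2 rose by 0.79, but unequally, with means of 10.87 and 11.03 in frontonasal mesenchyme and of 9.56 and 10.98 in mandibular. Col12a1 was similarly uneven, at 8.02, 7.79 and 8.03 and then 7.81, 7.74 and 7.85 in frontonasal mesenchyme, and at 6.44, 6.59 and 6.48 and then 8.05, 7.70 and 7.66 in mandibular. The chains that fell were Col2a1 by 0.58, Col9a1 by 0.26 and Col18a1 by 0.24. Col9a1 and Col18a1 each lost the call in 8 of the 12 fits that left out 1 array, and the mean of Col9a1 changed by -0.64 in mandibular and by 0.13 in frontonasal mesenchyme. Without the frontonasal groups the fall of Col2a1 was not called (-0.26, adjusted p = 0.157), nor was the rise of Col8a1 (0.08, adjusted p = 0.749). Markers of other cells moved at this step too. Higher at E11.5 were 5 of 6 skeletal muscle, 3 of 4 erythroid, 2 of 3 macrophage, 2 of 5 bone and 3 of 6 mesenchymal markers, and their part in the collagen changes was not tested.

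At the second step Col12a1 rose most, by 1.77 ± 0.073 (adjusted p = 2.89e-20). It went from 7.81, 7.74 and 7.85 to 9.58, 9.24 and 9.76 in frontonasal mesenchyme, from 7.16, 7.03 and 6.99 to 9.23, 9.21 and 9.22 in maxillary and from 8.05, 7.70 and 7.66 to 9.19, 9.16 and 9.37 in mandibular. Every E12.5 array was above every E11.5 array. Col8a1 rose by 1.76 ± 0.081, from 6.86, 6.72 and 6.75 to 8.86, 8.74 and 8.89 in frontonasal mesenchyme, from 6.31, 6.52 and 6.30 to 7.77, 7.79 and 7.78 in maxillary and from 5.89, 5.96 and 5.79 to 7.75, 7.75 and 7.65 in mandibular. Col14a1 rose by 1.70 ± 0.077, from 5.58 to 6.39 over the E11.5 arrays to 7.20 to 8.33 over those of E12.5. Col1a1 rose by 1.64 ± 0.13, from 9.45 to 10.35 at E11.5 to 10.95 to 11.98 at E12.5, again without overlap. Of the other fibrillar chains Col5a2 rose by 1.17, Col5a1 by 0.80 on probe set 10470462, Col3a1 by 0.75 and Col1a2 by 0.72. The type VI chains rose by 1.2 to 1.32. Basement membrane chains Col4a1 and Col4a2 rose by 0.38 and 0.43, while Col4a5 and Col4a6 were not called.

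Col2a1 and Col9a1 were not called over the 3 prominences at this step, and the prominences went apart. The Col2a1 arrays read 9.27, 9.24 and 8.97 and then 9.72, 9.59 and 9.65 in frontonasal mesenchyme, and 8.75, 8.69 and 8.59 and then 8.32, 8.48 and 8.30 in maxillary. The Col9a1 arrays read 7.82, 7.75 and 7.65 and then 8.53, 8.32 and 8.66 in frontonasal mesenchyme, and 7.58, 7.56 and 7.60 and then 7.23, 6.86 and 7.11 in maxillary. Whether these prominences differ in their change was not tested. Of 8 cartilage markers with a value, 6 were higher and 1 lower at E12.5 over the 3 prominences, and their array means were 7.17 to 7.26 in frontonasal, 5.97 to 6.16 in maxillary and 6.55 to 6.73 in mandibular mesenchyme at E12.5. At E11.5 these means were 6.221 to 6.388 in frontonasal, 6.125 to 6.184 in maxillary and 6.101 to 6.195 in mandibular mesenchyme. The ages thus overlapped in maxillary mesenchyme only. Of 5 bone markers 3 rose, as did 5 of 6 skeletal muscle, 6 of 10 epithelial and 3 of 8 endothelial markers, while 3 of 4 erythroid and 3 of 5 neuron markers fell. The part of these lineages in the collagen changes was not tested.

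In ectoderm the step from E10.5 to E11.5 could be measured only in the mandibular prominence (3 arrays an age). Col12a1 rose from 6.43, 6.28 and 6.52 to 9.05, 8.71 and 8.60, a change of 2.38 ± 0.13 (adjusted p = 7.04e-16). Col17a1 rose from 6.88, 6.96 and 7.12 to 9.03, 8.42 and 8.56, by 1.68 ± 0.15 (adjusted p = 1.66e-10). In all 14 of 35 probe sets were called, 9 higher and 5 lower, beside 18.4% of all tested (11.4% higher and 6.95% lower). The median change was -0.01 over the collagens and -0.04 over all tested. Falls were Col2a1 by 0.85, Col18a1 by 0.54, Col4a6 by 0.43, Col4a2 by 0.35 and Col11a1 by 0.24. Of the 6 fits that left out 1 array of these groups, Col4a2 and Col11a1 lost their calls in 5 and Col4a6 in 2.

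Part of this step moved together with markers of mesenchyme. Col1a2 read 7.16, 7.04 and 7.39 at E10.5 and 8.14, 9.40 and 9.39 at E11.5 in mandibular ectoderm, a rise of 1.78 ± 0.28. Col3a1 read 6.66, 6.89 and 7.30 and then 7.98, 8.94 and 9.26, a rise of 1.78 ± 0.25. The mean of the 6 mesenchymal markers on the same arrays was 5.51, 5.20 and 5.89 and then 6.55, 8.13 and 8.14, so the E11.5 array lowest in these markers was also lowest in Col1a2 and Col3a1. For the whole list 5 of 6 mesenchymal, 7 of 8 endothelial and 4 of 4 erythroid markers rose at this step, and the part of carried-over tissue in the rises of Col1a1, Col1a2, Col3a1 and Col6a3 was not tested. On the E11.5 array lowest in the markers Col12a1 and Col17a1 were highest, at 9.05 and 9.03.

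From E11.5 to E12.5 ectoderm changed in 17 of 35 collagen probe sets over the 3 prominences, 13 higher and 4 lower, beside 28.7% of all tested (11.9% higher and 16.8% lower). The median change was 0.11 over the collagens and 0.01 over all tested. Col17a1 rose by 1.39 ± 0.088 (adjusted p = 3.78e-15), from 8.36, 8.47 and 8.49 to 10.49, 10.38 and 9.76 in frontonasal ectoderm, from 8.83, 8.94 and 9.0 to 10.06, 10.03 and 9.83 in maxillary and from 9.03, 8.42 and 8.56 to 10.13, 10.03 and 9.92 in mandibular. Every E12.5 array was above every E11.5 array. Col2a1 fell by 1.23 ± 0.067 (adjusted p = 6.60e-17), from 9.30, 9.33 and 9.29 to 8.08, 8.08 and 8.30 in frontonasal ectoderm, from 9.23, 9.32 and 9.23 to 7.96, 7.89 and 7.83 in maxillary and from 9.42, 9.10 and 9.09 to 7.97, 8.11 and 7.98 in mandibular. With the fall of 0.85 before it, Col2a1 in mandibular ectoderm went from 10.05 at E10.5 to 8.02 at E12.5. Col8a1 rose by 1.16 ± 0.081 and Col12a1 by 0.85 ± 0.073, neither with overlap between the ages. Col7a1 rose by 0.61, Col5a2 by 0.66, Col14a1 by 0.82 and Col4a5 by 0.29, and Col4a2, Col18a1 and Col9a1 fell by 0.23, 0.22 and 0.21. The call of Col9a1 was lost in 10 and that of Col18a1 in 2 of the 18 fits that left out 1 array. None of the 6 mesenchymal markers rose in ectoderm at this step and 3 fell, as did 4 of 4 erythroid, 4 of 8 endothelial and 4 of 5 neuron markers, and their part was not tested. The rises of Col6a3 (0.43) and Col6a2 (0.35) lost their calls when only the groups compared were fitted (adjusted p = 0.14 and 0.0743), and that of Col6a3 also in 4 fits without 1 array.

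**Figure D4:**
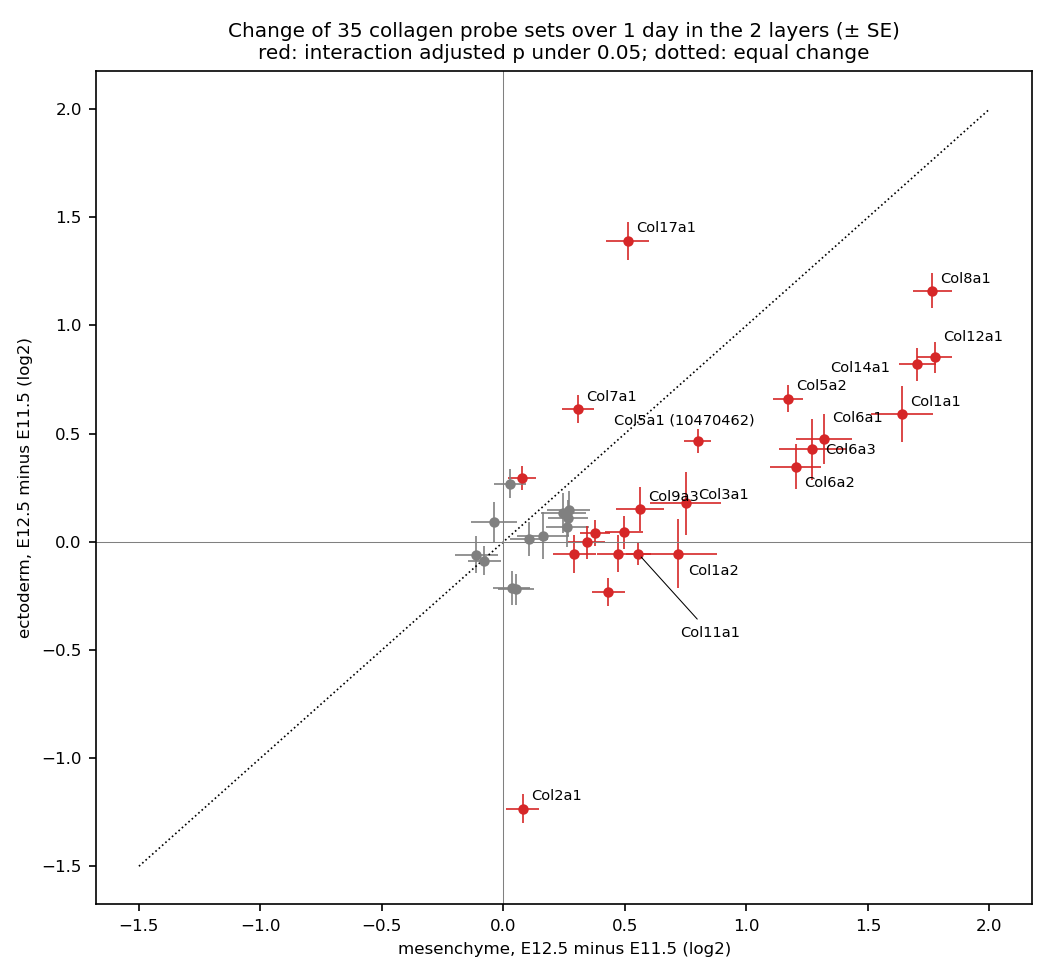
Change from E11.5 to E12.5 (log2, ± SE) of the 35 collagen probe sets in mesenchyme (horizontal axis) and in ectoderm (vertical axis), averaged over the 3 prominences. Red points passed the test of the difference between the layers, and the dotted line marks equal change. Most red points lie below the line, Col17a1, Col7a1 and the unlabelled Col4a5 lie above it, and Col2a1 lies at -1.23 in ectoderm and 0.08 in mesenchyme.

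The change from E11.5 to E12.5 differed between the layers in 23 of 35 probe sets by the interaction test, 3 more positive in ectoderm and 20 more negative, beside 23.9% of all tested (8.36% positive and 15.5% negative) and 21.7% negative among tested probe sets of the authors' table. The median of this difference was -0.35 over the collagens and 0.01 over all tested. The 3 were Col17a1 (0.88 ± 0.12, adjusted p = 7.79e-07), Col7a1 (0.31 ± 0.092, adjusted p = 0.0114) and Col4a5 (0.22 ± 0.080, adjusted p = 0.0421). The call of Col4a5 was lost in 20 of the 36 fits that left out 1 array. The other basement membrane chains called, Col4a1 (-0.34) and Col4a2 (-0.66), and the multiplexin Col15a1 (-0.53) had a more negative change in ectoderm. Col2a1 had the most negative value (-1.31 ± 0.094, adjusted p = 2.52e-13), followed by Col1a1 (-1.05 ± 0.18, adjusted p = 2.51e-05), Col12a1 (-0.92 ± 0.10, adjusted p = 7.62e-09) and Col14a1 (-0.88 ± 0.11, adjusted p = 5.58e-08). The type VI chains lay at -0.84 to -0.85. All these values average the 3 prominences. Between E11.5 and E12.5 the layer gap of Col6a3 went from -1.40 to -3.20 in mandibular tissue. It went from -1.47 to -1.88 in frontonasal and from -1.45 to -1.77 in maxillary tissue. Col6a1, Col1a2 and Col3a1 also widened most in mandibular tissue, whereas Col12a1 narrowed most in maxillary. The mesenchymal markers of mandibular ectoderm had median array means of 8.13 at E11.5 and 6.39 at E12.5, and their part was not tested. The interaction of Col8a1 (-0.60) was not called without the frontonasal groups (-0.20, adjusted p = 0.344), and that of Col3a1 (-0.57) was lost in 16 of the fits that left out 1 array, with Col9a2 (-0.35) lost in 19 and Col9a3 (-0.41) in 9. Endothelial markers (6 of 8), cartilage markers (6 of 8), neuron markers (4 of 5), mesenchymal markers (4 of 6) and skeletal muscle markers (4 of 6) also had a more negative change in ectoderm, and their part was not tested.

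The third set of comparisons asked where in the face the collagens differ, within a layer and averaged over E11.5 and E12.5. These comparisons share groups, so their counts are not independent of each other. In mesenchyme, frontonasal against mandibular gave 16 called collagens, 7 higher and 9 lower, beside 20.3% of all tested (11.8% higher and 8.48% lower). Frontonasal against maxillary gave 17, 9 higher and 8 lower, beside 18.8% (11.8% and 6.99%), and maxillary against mandibular gave 6, 1 higher and 5 lower, beside 9.98% (4.15% and 5.84%). Among tested probe sets of the authors' table the shares called in these mesenchyme comparisons were 27.8%, 25.8% and 13.6%, in the same order. Frontonasal mesenchyme was lower in the type VI chains and higher in Col8a1, Col14a1 and Col2a1 than both others. In ectoderm, frontonasal against mandibular gave 6, 3 higher and 3 lower, beside 23.1% (11.3% and 11.8%), frontonasal against maxillary gave 5, 2 higher and 3 lower, beside 9.24% (4.31% and 4.93%), and maxillary against mandibular gave 3, all higher, beside 5.04% (3.03% and 2.01%). The shares among tested probe sets of the authors' table were here 27.2%, 12.3% and 6.87%, in the same order. These ectoderm counts moved with single arrays, reaching 10 for the first comparison without frontonasal E12.5 replicate 2, and 11 for the second and 7 for the third without maxillary E12.5 replicate 3. Whether the layers differ in the number called was not tested.

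Type VI chains were lower in frontonasal mesenchyme than elsewhere. At E12.5 Col6a1 read 8.44, 8.20 and 8.37 in frontonasal, 9.36, 9.49 and 9.26 in maxillary and 9.58, 9.38 and 9.51 in mandibular mesenchyme, and at E11.5 it read 7.14, 7.19 and 7.07, then 8.19, 8.12 and 8.52, then 7.93, 7.91 and 7.64. Frontonasal arrays were below both others at each age. The difference was -0.92 ± 0.14 from mandibular (adjusted p = 2.69e-06) and -1.09 ± 0.14 from maxillary (adjusted p = 1.47e-07). Col6a3 differed by -0.85 and -0.86, with 8.72, 8.66 and 8.89 in frontonasal, 9.83, 10.01 and 9.64 in maxillary and 9.84, 9.84 and 9.91 in mandibular mesenchyme at E12.5. Col6a2 differed by -0.77 and -0.79. Col1a1 (-0.52 and -0.57), Col5a1 on probe set 10470462 (-0.46 and -0.36), Col25a1 (-0.43 and -0.32) and Col23a1 (-0.35 and -0.31) were lower in frontonasal mesenchyme in both comparisons too. Skeletal muscle markers were also lower there. Their array means at these ages were 5.42 to 5.70 in frontonasal, 6.14 to 7.02 in maxillary and 7.43 to 8.87 in mandibular mesenchyme. Of the 6 mesenchymal markers 2 were called lower in each comparison and none higher (median differences of -0.38 from mandibular and -0.33 from maxillary). At E12.5 the mesenchymal markers had array means of 9.69 to 9.75 in frontonasal, 10.67 to 10.86 in maxillary and 10.48 to 10.56 in mandibular mesenchyme. The part of these marker lists in the collagen differences was not tested.

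Frontonasal mesenchyme was higher in Col8a1, by 1.00 ± 0.099 over mandibular (adjusted p = 2.00e-10) and by 0.72 over maxillary. Col8a2, its partner chain, was at 7.36, 7.34 and 7.16 and then 7.38, 7.24 and 7.33 in frontonasal mesenchyme at E11.5 and E12.5, at 6.18, 6.41 and 5.97 and then 6.85, 6.57 and 6.79 in maxillary and at 6.86, 6.88 and 6.83 and then 7.20, 6.81 and 7.19 in mandibular. Frontonasal and maxillary arrays of Col8a2 did not overlap, and the difference was 0.84 ± 0.11 (adjusted p = 1.60e-07), against 0.34 over mandibular. Col14a1 was higher by 0.54 and 0.42, and Col18a1 by 0.31 and 0.38. Col4a5 and Col4a6 were higher than in mandibular mesenchyme by 0.24 and 0.27, and the call of Col4a6 was lost in 5 of the 12 fits that left out 1 array, as was that of Col8a2 against mandibular in 3. The epithelial markers, too, were higher in frontonasal mesenchyme, as given above (10 of 10, with a median difference of 1.86 from mandibular). Neuron markers were 4 of 5 higher and 1 lower than in mandibular (median 2.56), with array means of 7.24 to 7.77 in frontonasal, 6.28 to 7.57 in maxillary and 5.38 to 6.07 in mandibular mesenchyme at these ages, and 4 of 5 bone markers were lower. The part of these cells in the collagen differences was not tested.

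Of the cartilage collagens, Col9a1 and Col2a1 were lower in maxillary mesenchyme than in both other prominences. Col9a1 read 7.58, 7.56 and 7.60 at E11.5 and 7.23, 6.86 and 7.11 at E12.5 in maxillary mesenchyme, and 8.68, 8.59 and 8.56 and then 8.51, 8.35 and 8.52 in mandibular, with no overlap. The difference was -1.21 ± 0.094 (adjusted p = 1.40e-12). It was higher in frontonasal than in maxillary mesenchyme by 0.80, and in mandibular mesenchyme it was already at 9.25, 9.36 and 9.15 at E10.5, when frontonasal mesenchyme was at 7.60, 7.74 and 7.5. Col2a1 was lower in maxillary than in mandibular mesenchyme by 0.50 ± 0.082 (adjusted p = 2.06e-05) and lower than in frontonasal by 0.89. Col9a2 and Col9a3 were higher in frontonasal than in maxillary mesenchyme by 0.39 and 0.44, but were not called between maxillary and mandibular (-0.32 and -0.20). Col11a1 was lower in maxillary than in mandibular mesenchyme by 0.21, a call lost in 3 of 12 fits without 1 array. Of 8 cartilage markers, 5 were higher in frontonasal than in maxillary mesenchyme, among them Sox9 (1.58 ± 0.083) and Cnmd (1.19 ± 0.11), and 4 were lower in maxillary than in mandibular. Col12a1 was lower in maxillary mesenchyme than in mandibular, by 0.38, a gap of E11.5 (means of 7.06 and 7.80) that was not seen at E12.5 (9.22 and 9.24).

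In ectoderm Col14a1 set the maxillary prominence apart. It read 7.06, 7.31 and 7.15 at E11.5 and 8.33, 8.19 and 8.0 at E12.5 in maxillary ectoderm, 6.32, 6.47 and 6.43 and then 6.83, 6.98 and 7.0 in frontonasal, and 6.56, 6.51 and 6.51 and then 7.64, 7.46 and 7.28 in mandibular. Maxillary ectoderm was above both others at each age, by 1.00 ± 0.094 over frontonasal (adjusted p = 9.44e-10) and by 0.68 ± 0.094 over mandibular (adjusted p = 3.01e-06). Col6a3 was higher in maxillary ectoderm as well, by 0.93 and 0.70, but its arrays at E12.5 spread from 8.74 and 8.23 to 7.20. The mesenchymal markers on these arrays were at 8.36, 8.12 and 7.36, in the same order, and their part was not tested. Without the array at 8.74 the difference of Col6a3 from mandibular was 0.53 (adjusted p = 0.0548). Col11a1 was lowest in mandibular ectoderm, at 7.68, 7.66 and 7.59 at E12.5 against 8.29, 8.27 and 7.97 in frontonasal and 8.07, 8.07 and 7.92 in maxillary, with differences of 0.31 and 0.36. Col5a2 was lower in frontonasal ectoderm than in mandibular and maxillary, by 0.34 and 0.27, and the call against maxillary was lost in 5 of the 12 fits that left out 1 array. Col9a1 was higher there by 0.35 in both comparisons, calls that were lost without the 3 arrays that stood apart (adjusted p = 0.0893 and 0.123). Col19a1 was higher in frontonasal than in maxillary ectoderm by 0.30. The call of Col10a1 between frontonasal and mandibular ectoderm (0.40) was lost in 4 of the fits that left out 1 array.

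**Figure D5:**
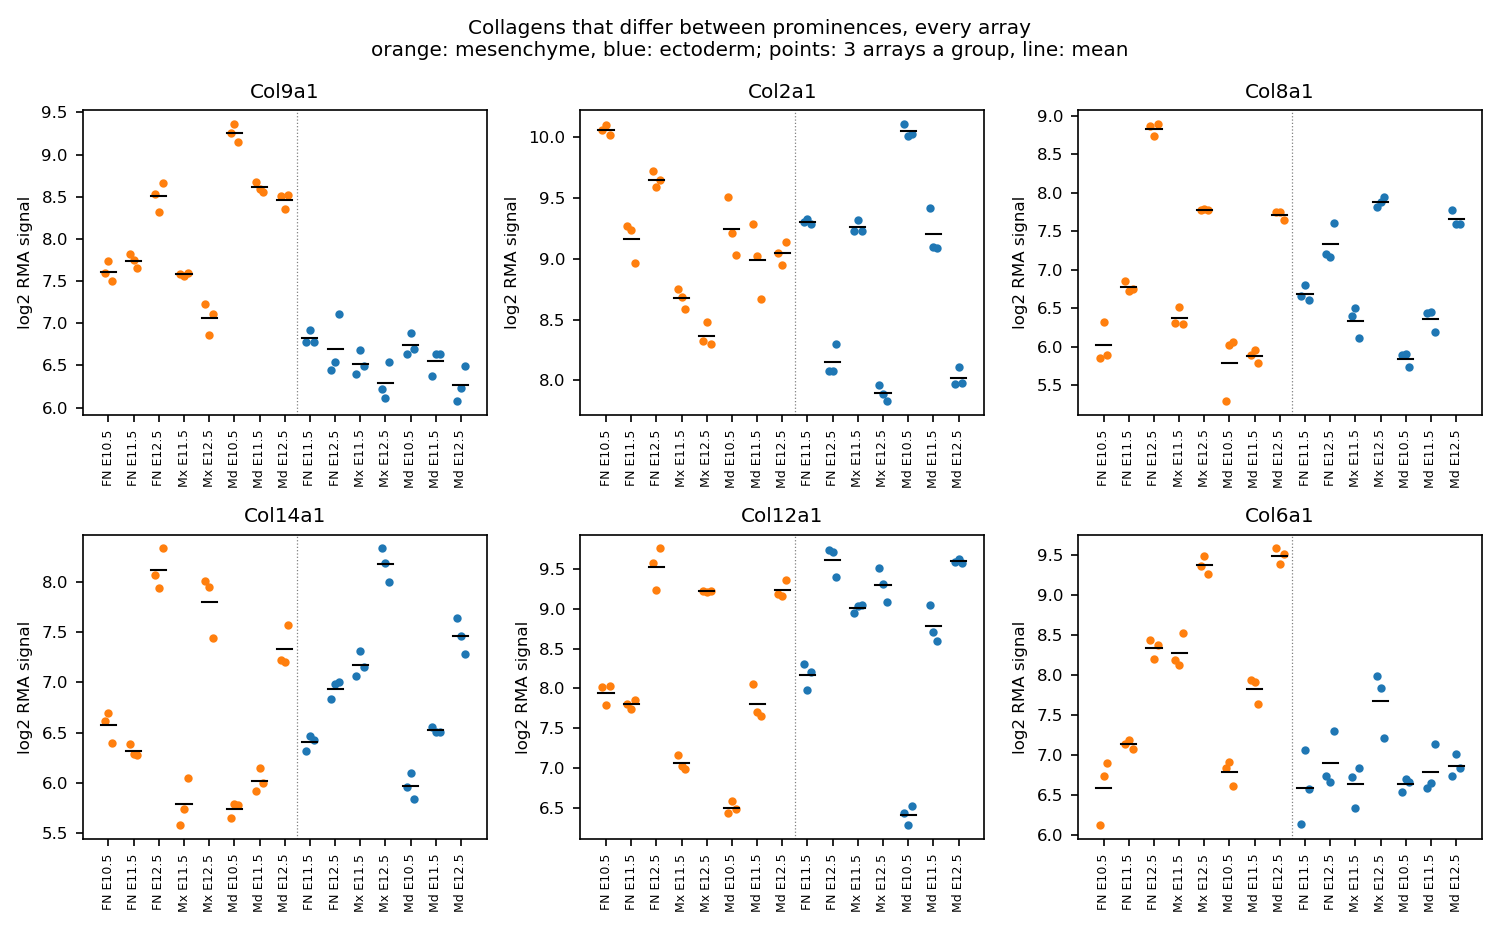
Log2 signal on every array (vertical axis) in the 15 groups (horizontal axis) for Col9a1, Col2a1, Col8a1, Col14a1, Col12a1 and Col6a1, with mesenchyme in orange, ectoderm in blue and black lines for group means of 3 arrays. Col9a1 is lowest among mesenchyme groups in the maxillary prominence at E12.5, Col8a1 reaches 8.89 in frontonasal mesenchyme at E12.5, and Col14a1 is highest in ectoderm in the maxillary prominence.

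Whether the layer difference itself varied between prominences was tested with a moderated F over E11.5 and E12.5, and 13 of 35 probe sets were called, beside 19.6% of all tested and 26.5% among tested probe sets of the authors' table. Col14a1 led (F = 58.5, adjusted p = 6.12e-10), with a gap between ectoderm and mesenchyme that was 0.86 lower in frontonasal than in mandibular tissue and 0.56 higher in maxillary. Col9a1 followed (F = 42.4), its gap being 0.77 and 1.21 higher in frontonasal and maxillary than in mandibular tissue. For Col8a1 (F = 29.3) the frontonasal gap was 1.00 lower, and for Col11a1 (F = 23.2) the gaps were 0.42 and 0.57 higher. Col1a1, Col1a2, Col3a1 and Col6a3 were not called, nor was Col17a1.

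The genes that process collagen were taken as a list of 32, of which 26 had a row. By the probe set with the highest mean of each gene, 23 were lower in ectoderm and 2 higher, with a median difference of -0.87, beside 33.7% lower and 35.9% higher over all tested probe sets. Among tested probe sets of the authors' table, from which these genes come, 40.3% were lower and 38.9% higher. The largest were Lox, which cross-links collagen (-2.18 ± 0.072), Pcolce, which enhances the cleavage of procollagen (-2.10 ± 0.069), P4ha3, a prolyl hydroxylase chain (-1.31), and Plod1, a lysyl hydroxylase (-1.26). In mesenchyme 16 rose and 1 fell from E10.5 to E11.5 (beside 14.8% and 11.3% of all tested), and 22 rose and 1 fell from E11.5 to E12.5 (beside 19.4% and 17.3%). Lox rose by 1.18 and then 1.59, and P4ha3 by 1.58 and then 0.93. In ectoderm from E11.5 to E12.5, 6 rose and 9 fell (beside 11.9% and 16.8%, or 14.3% and 21.9% in the authors' table). Pcolce2 (-0.83) and Loxl2 (-0.65) were among those that fell. The change was more negative in ectoderm for 21 of the 26 and more positive for none (beside 15.5% and 8.36%, or 21.7% and 9.70% in the authors' table). Loxl2 (-1.42 ± 0.093) and Lox (-1.36 ± 0.16) led.

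Of 10 receptors for collagen, 7 had a row. The discoidin domain receptors split by layer, with Ddr1 higher in ectoderm by 2.04 ± 0.047 and Ddr2 lower by 3.13 ± 0.10 (Ddr2 is also on the list of mesenchymal markers). Of the integrin chains that bind collagen, Itga1 was lower in ectoderm by 1.38 and Itga2 higher by 0.73. Itga2 rose in mandibular ectoderm by 1.63 from E10.5 to E11.5 and in ectoderm by 1.35 from E11.5 to E12.5, and its change at the later step was 0.91 more positive in ectoderm than in mesenchyme (adjusted p = 6.39e-09).

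Chains that assemble together did not always share a pattern over the 15 group means. As a description, Pearson's r was 0.99 for Col6a1 with Col6a2, 0.98 for Col6a2 with Col6a3 and 0.90 for Col1a1 with Col1a2. Between chains of different collagen types, r was 0.98 for Col1a2 with Col3a1. It was 0.80 for Col4a1 with Col4a2, whose listed starts lie 21 bases apart on opposite strands, and 0.97 over the 8 mesenchyme groups alone. For Col4a5 with Col4a6 r was 0.95 over all groups and 0.15 over the 7 ectoderm groups. It was 0.74 for Col9a1 with Col9a2, 0.42 for Col9a1 with Col9a3 and 0.28 for Col8a1 with Col8a2. The groups share the contrast of layer and age, which all these values carry. Outside the collagens the probe sets most like Col1a1 were C1qtnf6, Lepre1, Gxylt2 and Tgfbr2 (r of 0.98 each), those most like Col2a1 were Nav1, Nt5dc2, Grtp1 and Hapln1 (0.87 to 0.88), those most like Col4a1 were Lrp1, Sepn1, Actn1 and Myo18b (0.81 to 0.90), and those most like Col17a1 were Rxfp1, Rhov, Pkp1 and Bdh1 (0.98 to 0.99).

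In the authors' deposited table of q-values from a model of age, prominence and layer with their interactions, a q under 0.05 was given to 29 of the 35 collagen probe sets for layer (77.3% of the table), to 25 for age (60.2%) and to 18 for prominence (41.2%). For the interaction of age with layer it was given to 19 (40.4% of the authors' deposited table) and for that of prominence with layer to 15 (25.0%). The authors' q for age with layer was 0.778 for Col12a1, 0.213 for Col14a1 and 0.851 for Col3a1, all called above. It was 0.156 for Col1a2, 0.123 for Col8a1 and 0.0749 for Col4a5, and under 0.05 for the others called above. Col9a1 (q = 0.0112) and Col18a1 (q = 0.00107) had such a q but were not called above. The interaction test above covered E11.5 and E12.5 only.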

How the data were processed

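Log2 signals were deposited by the authors for 28944 probe sets on 45 arrays and, per the submitters' processing notes, come from Affymetrix Power Tools 1.91 and the RMA method, on build mm9. A deposited table of detection p-values, whose header names apt 1.8.0, covers 35557 probe sets, and 6613 of them have no value and were not analysed here. The authors' deposited q-values of a three-factor model cover 9626 probe sets after a filter on variance, and gene symbols come from that table.

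Testing covered the 14472 probe sets whose variance over all arrays exceeded the median of 0.0414, and was done with limma 3.58.1 in R 4.3.3. One mean was fitted for each of the 15 groups on all 45 arrays, contrasts were averaged with equal weight, and p-values were adjusted by Benjamini-Hochberg over the 14472, with a threshold of 0.05 for a call. A detection p under 0.05 counted as detected. All 35 collagen probe sets passed the variance filter. The authors' table they come from had passed a filter of its own, and 9395 probe sets of that table were tested here. For other lists a gene stands for its probe set with the highest mean. The number of arrays limits the precision. Replicates are labelled biological and were pools of embryos. Replicate numbers were checked over 21 pairs of ectoderm and mesenchyme arrays with the same number, prominence and age. Their deviations from the group means correlated at -0.421 to 0.364 (8 over 0.1). The numbers were not treated as pairs, though this check cannot show whether the samples were paired.

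Collagens and gene lists were chosen with earlier results of these data known. Array values are given for the 2 probe sets with the largest layer difference in each class and for up to 4 called probe sets with the largest difference in each other comparison. Alternatives covered the filter, normalization, moderation, array weights, the groups in the fit, the replicate number as a block and leaving out each array. Others, chosen after seeing the data, left out the 3 arrays that stood apart or the frontonasal groups. The fit was tested on simulated data. Python 3.11.15 with numpy 2.4.6, pandas 2.3.3, scipy 1.17.1 and matplotlib 3.10.9 read the files and drew the figures. Promoter sequences are those of RefSeq on GRCm38.p6, another build than mm9, so no coordinates are given for probe sets.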

Additional observations from a re-analysis of the deposited data

Results flagged for a closer look

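The change from E11.5 to E12.5 differed between ectoderm and mesenchyme (interaction test of limma, adjusted p under 0.05) in 23 of 35 collagen probe sets. Over all tested probe sets 23.9% were called, and 31.4% among tested probe sets of the authors' table. Values are the change in ectoderm minus that in mesenchyme (log2), averaged over the 3 prominences. For Col6a3, Col6a1, Col1a2 and Col3a1 the layer gap widened most in the mandibular prominence, and for Col12a1 it narrowed most in the maxillary. Fibrillar chains with a more negative change in ectoderm were Col2a1 (-1.31), Col1a1 (-1.05), Col1a2 (-0.77), Col11a1 (-0.61), Col3a1 (-0.57), Col5a2 (-0.51) and Col5a1 on probe set 10470462 (-0.33). Basement membrane chains were Col4a2 (-0.66) and Col4a1 (-0.34), against Col4a5 at 0.22. Beaded filament chains were Col6a2 (-0.85), Col6a1 (-0.84) and Col6a3 (-0.84), and the short chain network gave Col8a1 (-0.60). FACIT chains were Col12a1 (-0.92), Col14a1 (-0.88), Col16a1 (-0.45), Col9a3 (-0.41) and Col9a2 (-0.35), and the calls of Col9a2 and Col9a3 were lost in 19 and 9 of the 36 fits that left out 1 array, beside 20 for Col4a5 and 16 for Col3a1. The remaining ones were Col15a1 (-0.53) and Col25a1 (-0.35) on the negative side, and Col17a1 (0.88) and Col7a1 (0.31) on the positive side. In ectoderm 0 of the 6 mesenchymal markers rose and 3 fell at this step, and 4 of 6 had a more negative change in ectoderm than in mesenchyme. Endothelial (6 of 8) and neuron markers (4 of 5) also had a more negative change in ectoderm, where 4 of 4 erythroid, 4 of 8 endothelial and 4 of 5 neuron markers fell. Their part in these values was not tested.

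The difference between ectoderm and mesenchyme varied between the prominences (moderated F of limma on 2 contrasts) in 13 of 35 collagen probe sets. Over all tested probe sets 19.6% were called, and 26.5% among tested probe sets of the authors' table. The F was 58.5 for Col14a1, 42.4 for Col9a1, 29.3 for Col8a1, 23.2 for Col11a1, 20.6 for Col2a1 and 19.9 for Col12a1. It was 10.3 for Col6a2, 10.2 for Col5a1 on probe set 10470462, 9.84 for Col6a1, 7.75 for Col23a1, 6.54 for Col25a1, 6.04 for Col18a1 and 6.0 for Col8a2. The call of Col18a1 was lost in 8, that of Col8a2 in 5 and that of Col25a1 in 4 of the fits that left out 1 array.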

How the results depend on the processing

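Counts are collagen probe sets called out of 35. Leaving out 1 array at a time, the layer gave 32 to 33. In mesenchyme, frontonasal against mandibular gave 14 to 15, maxillary against mandibular 4 to 7, frontonasal against maxillary 17 to 18, E11.5 against E10.5 12 to 16 and E12.5 against E11.5 23 to 25. In ectoderm, E11.5 against E10.5 gave 11 to 14 and E12.5 against E11.5 15 to 17. The interaction of layer with age gave 20 to 24 and that of layer with prominence 11 to 16. The prominences of the ectoderm moved most. Frontonasal against mandibular gave 4 to 10 (10 without frontonasal E12.5 replicate 2), maxillary against mandibular 2 to 7 (5 without mandibular E11.5 replicate 3, 7 without maxillary E12.5 replicate 3) and frontonasal against maxillary 4 to 11 (11 without maxillary E12.5 replicate 3). With array weights, mesenchyme maxillary against mandibular gave 11, ectoderm maxillary against mandibular 6 and ectoderm frontonasal against maxillary 11. With only the groups compared in the fit, ectoderm frontonasal against mandibular gave 2 and frontonasal against maxillary 1. Centring arrays on their medians gave 9 for ectoderm frontonasal against maxillary. Without the 3 arrays that stood apart, ectoderm frontonasal against mandibular gave 3. The cause of these shifts was not tested. Of the 193 calls of a collagen in a comparison, 13 were lost with centred arrays, 22 with only the groups compared (fewer arrays), 8 without the 3 arrays, 7 with repeated quantile normalization, 6 with no variance filter, 3 with a detection filter, 3 with array weights and 2 with trended, robust moderation. None of these alternatives reversed a call. Leaving out the frontonasal groups reversed Col2a1 (0.019, adjusted p = 0.789) and Col8a1 (0.11, adjusted p = 0.128) in the layer comparison and lost 17 of 113 calls.

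Of 21 pairs of ectoderm and mesenchyme arrays with the same replicate number, 8 correlated over 0.1. Of the 21 mesenchyme arrays, 9 correlated best with the ectoderm array of their own number. Whether the samples were paired cannot be told from this, as the deviations are taken from means of only 3 arrays. With the replicate number as a block all 193 calls were kept, with counts of 33 for the layer, 16, 6 and 17 for the mesenchyme prominences, 6, 3 and 7 for those of the ectoderm, 15 and 25 for the mesenchyme ages, 15 and 17 for the ectoderm ages, and 24 and 13 for the interactions.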
